A study of Bos taurus with 2 samples.

Results

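Cytosolic ribosomal protein genes were followed through single-nucleus RNA sequencing of bovine (Bos taurus) blastoids and day-8 blastocysts. Members were all features whose symbol is RPL or RPS followed by a digit, RPLP followed by a digit, or RPSA. The 10 RPS6K kinase genes, which share only the first letters of the name, were left out. The rule found 70 of 35643 features, which carry 69 symbols because RPL39 is listed in 2 rows. By role they comprise 28 symbols of the small (40S) subunit, 37 of the large (60S) subunit, 3 of the P stalk (RPLP0, RPLP1 and RPLP2) and RPS19BP1, a binding partner of RPS19 that is no ribosomal protein and was matched by name alone. Of the 69 symbols, 63 name core subunit proteins, and the others are RPS19BP1 and the paralogues RPL3L, RPL7L1, RPL10L, RPL22L1 and RPL26L1. A further 14 ribosomal protein symbols, RPL4, RPL5 and RPS6 among them, match no row and were not analysed here. FAU also encodes a ribosomal protein, as a fusion with a ubiquitin-like protein, but its symbol falls outside the rule.

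A blastoid is a structure resembling a blastocyst that is assembled in culture from stem cells. Here 8 bEPSC, 8 bXEN and 16 bTSC cells were placed in each microwell, after depletion of the iMEF feeder cells, in ACL medium with LIF, ActivinA, Chir99021 and the CEPT cocktail (chroman-1, emricasan, trans-ISRIB and polyamines). The day-8 blastocysts carry the same growth text in the labels, which does not describe embryo culture. Both sources were labelled WT and frozen before their nuclei were isolated for 10x Genomics 3′ libraries, and the number of blastoids or embryos in a library is not given. Each group had 1 library, so no difference below has a replicate check, no test between groups was possible, and each comparison is between these libraries rather than the conditions.

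Ribosomes are built from a small subunit, which decodes the mRNA, and a large subunit, which joins amino acids and carries the P stalk that recruits translation factors. Each subunit protein is needed in nearly equal amounts, and the mRNAs of these proteins share a 5′ terminal oligopyrimidine (TOP) tract through which mTOR and LARP1 adjust their translation together. They are among the most abundant mRNAs of growing cells and lie mostly in the cytoplasm, whereas a nuclear preparation is enriched in unspliced and nuclear RNA.

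After filtering, 1914 blastoid barcodes with 7481886 UMIs and 828 blastocyst barcodes with 6865534 UMIs remained, and 1 barcode sequence occurred in both libraries. A barcode was called shallow under 4000 UMIs and deep from there. The blastoid library held 1628 shallow and 286 deep barcodes, the blastocyst library 140 and 688. Clusters were made within each library without the ribosomal protein genes. In the blastoid they were a shallow unnamed cluster of 1620 barcodes with markers of several lineages, a trophectoderm-like cluster of 154 (GATA2, GATA3, TFAP2A, TEAD4 and GRHL2), and a cluster of 140 led by LMX1A, LDB2, NLGN1 and DCC, whose 3 hypoblast markers (LAMA1 and COL18A1 among them) are outweighed by those leading genes, so that it is called LMX1A/DCC-high. In the blastocyst they were a hypoblast-like cluster of 404 (12 markers, GATA4, GATA6, PDGFRA and HNF4A among them), a trophectoderm-like cluster of 236 (9 markers), a keratin-high cluster of 119 with a median of 1632 UMIs and 8 trophectoderm markers, and a NANOG/HMGA2-high cluster of 69 with 5 epiblast and 4 hypoblast markers. No blastoid cluster was epiblast-like.

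Ribosomal protein genes made up a larger part of the blastoid library than of the blastocyst library. They gave 605483 UMIs in the blastoid, a share of 8.09% (95% exact binomial interval 8.07% to 8.11%), and 68407 UMIs in the blastocyst, a share of 0.996% (0.989% to 1.00%). The share ratio was 8.12 (95% exact conditional interval 8.06 to 8.19). All intervals cover counting error only. Among the 100 features with most UMIs, 46 were members in the blastoid and 0 in the blastocyst, where the highest ranked member stood at place 293 (RPSA).

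Of the 66 members with at least 10 UMIs in both libraries together, 64 were at least 2-fold higher in the blastoid and 0 at least 2-fold lower, against a background of 24.2% and 20.7% of 19223 genes. Their median log2 ratio of CPM (a gene's UMIs over all UMIs of the class, on the usual CPM scale) was 3.13, beside -0.08 over all those genes. The remaining 4 rows, the 2 of RPL39 with RPL10L and RPL3L, were at 0 in the blastoid, and RPL3L, a paralogue of striated muscle, had 2 UMIs in the blastocyst. No ratio is given for these rows.

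Small subunit genes are led by different members in the libraries. RPS12 had most UMIs in the blastoid, 19227 (2570 CPM), against 1827 (266 CPM) in the blastocyst. RPSA, which is also known as the laminin receptor, had most in the blastocyst, 2986 (435 CPM), against 14185 (1896 CPM) in the blastoid. Of the 63 core symbols, RPL39 was at 0 in both libraries. Over the other 62 the median was 9706 UMIs in the blastoid library and 966 in that of the blastocyst, and the lowest was RPL17 in both, with 457 and 61 UMIs. Since each molecule is counted once at its 3′ end, UMIs are not scaled by gene length, and a low count can also reflect reads shared with near-identical copies of a gene.

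Depth class divided the blastoid library. In shallow blastoid barcodes the ribosomal protein share was 15.6% (15.6% to 15.7%), and in deep ones 2.52% (2.51% to 2.54%), a ratio of 6.20 (6.16 to 6.24). With the limit at 2000 UMIs the deep share was 5.89% and the ratio 2.75, since the barcodes of 2000 to 4000 UMIs then count as deep. Per barcode, the shallow share had a median of 15.8% and ran from 14% at the 10th to 17.6% at the 90th percentile, and the deep share had a median of 2.81% (1.77% to 4.39%). At least 10% of UMIs came from these genes in 1619 of 1628 shallow barcodes and in 1 of 286 deep ones. Within the shallow unnamed cluster the SD over barcodes was 1.45 percentage points, where counting error alone gives 0.836.

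**Figure D1:**
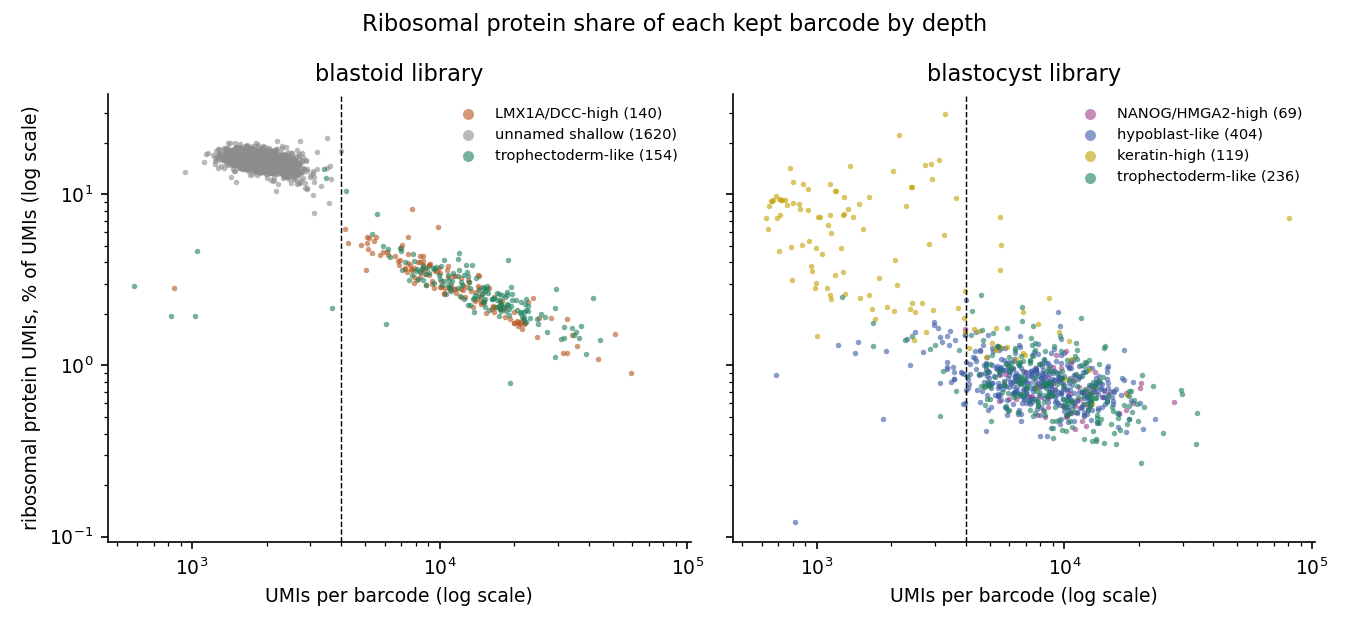
Percent of UMIs from ribosomal protein genes (vertical, log scale) against total UMIs (horizontal, log scale) for each kept barcode of the blastoid and blastocyst libraries, coloured by cluster; the dashed line marks 4000 UMIs. Shallow blastoid barcodes form a compact group around 15.8%, deep blastoid barcodes slope downward around 2.81%, and deep blastocyst barcodes lie around 0.762%.

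All 66 members were at least 2-fold higher in the shallow blastoid barcodes, and 0 were lower by that fold. The background was 18.4% of 16735 genes higher and 44.4% lower. The median log2 ratio was 2.64 for the members and -0.77 for all genes. Core members lay close together, between 4.77-fold (RPSA) and 7.05-fold (RPS13, 2580 against 366 CPM). RPS12 stood at 4963 CPM in shallow and 799 CPM in deep barcodes. Among the stalk genes, RPLP2 stood at 2807 and 409 CPM, a ratio of 6.86 (6.52 to 7.22). The large subunit paralogue RPL7L1, whose protein works in the nucleolus on the assembly of the large subunit, had the smallest ratio, 2.09 (1.78 to 2.45), with 127 and 60.9 CPM.

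Although the shares of the depth classes differed 6.20-fold, the ribosomal protein UMIs per barcode differed little in the blastoid. The median was 304 UMIs per shallow barcode (243 to 370 at the 10th and 90th percentiles) and 365 per deep barcode (274.5 to 504). By depth, the median was 234 UMIs in barcodes of 1000 to 1500 UMIs, 283 from 1500 to 2000, 339 from 2000 to 4000, 282 from 4000 to 8000, 344.5 from 8000 to 16000 and 427 above that. The share over the same bins was 16.5%, 16.2%, 15.0%, 4.53%, 3.05% and 1.92%. Thus over these bins the median count per barcode spanned 234 to 427 while the share spanned 1.92% to 16.5%. The remaining 4 barcodes, of 500 to 1000 UMIs, lay outside this pattern, with a median of 20.5 ribosomal protein UMIs and a share of 5.77%. Over the 286 deep barcodes, Spearman's rho of depth with the share was -0.89 and with the ribosomal protein count 0.75, given as a description, since depth enters both quantities.

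Shallow barcodes had the higher share in the blastocyst too, but were far less alike. Deep barcodes there had a share of 0.862% (0.855% to 0.869%) and shallow ones 4.08% (4.01% to 4.15%), a ratio of 4.74 (4.64 to 4.83). With the limit between the classes at 8000 UMIs the shallow share was 1.36% and the ratio 1.64. Of the 66 members, 63 were at least 2-fold higher in shallow barcodes and 0 lower, against 35.5% and 5.20% of 16201 genes. The median log2 ratio was 2.30 for members and 0.47 for all genes. Shallow blastocyst barcodes varied widely, from 0.918% at the 10th to 10.8% at the 90th percentile around a median of 2.78%, with a highest value of 29.5%. The SD was 4.75 percentage points where counting error gives 0.518. Only 17 of 140 reached 10%, and of the 688 deep barcodes 0 did, which allows a share of barcodes of up to 0.535% (exact binomial interval). The median count per barcode was 50.5 UMIs in shallow and 66 in deep barcodes. In bins of depth it went from 52 (4000 to 8000 UMIs) to 77 (8000 to 16000) and 118 (from 16000).

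**Figure D2:**
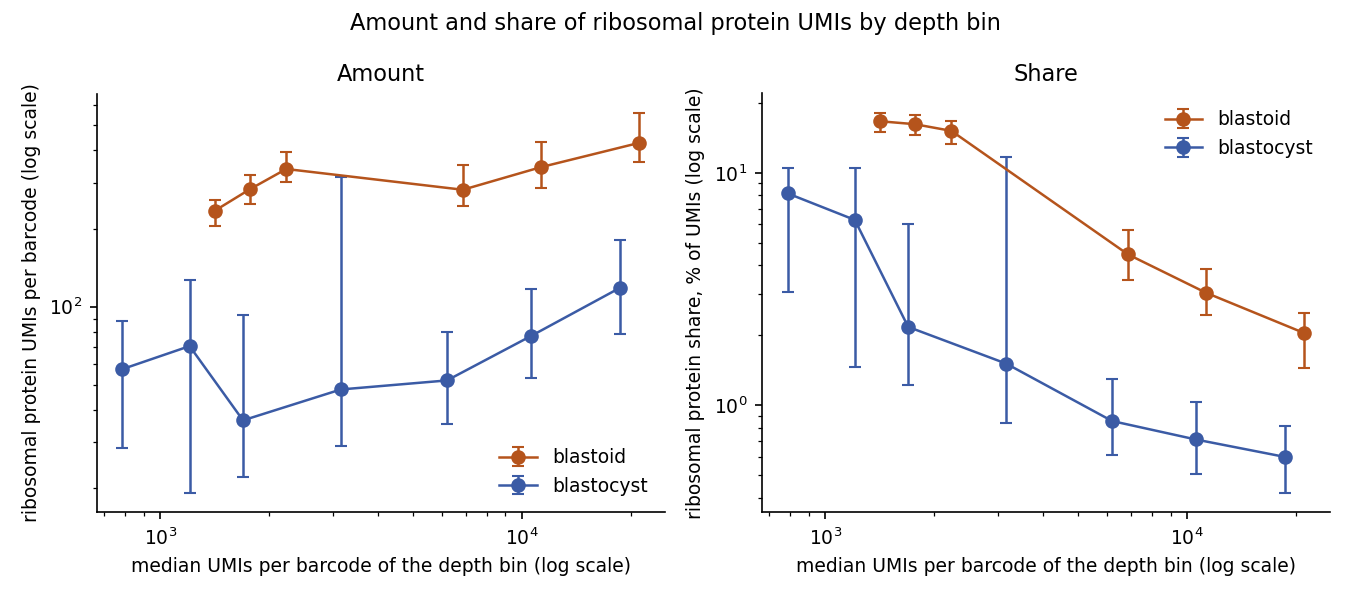
Ribosomal protein UMIs per barcode (left) and their percent of UMIs (right), both on log scales, against the median total UMIs of each depth bin with at least 10 barcodes; points give the median over barcodes and bars the 10th to 90th percentiles. Blastoid median counts lie between 234 and 427, above every blastocyst median count, which lie between 36.5 and 118, while the shares of both libraries slope downward with depth.

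A single blastocyst barcode with 80592 UMIs, the largest in that library, held 5890 ribosomal protein UMIs (7.31%), with 5.53% mitochondrial UMIs, and belonged to the keratin-high cluster. It was identified after the values were seen. Without it, the share of blastocyst barcodes from 16000 UMIs moved from 1.14% to 0.598%, the deep share from 0.862% to 0.782%, and the ratio of deep blastoid to deep blastocyst from 2.93 to 3.23. Doublets were taken out by score in both libraries, and this barcode was not among those removed.

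Other measures moved with the depth classes. Mitochondrially encoded genes gave 2.03% of UMIs in shallow and 0.481% in deep blastoid barcodes, and 2.25% and 0.794% in the blastocyst. The summed trophectoderm markers stood at 13242.5 CPM in shallow and 3150 CPM in deep blastoid barcodes, with 20 of 20 detected in both. Most of the shallow sum was keratin RNA, as KRT7, KRT8, KRT18 and KRT19 gave 10602 CPM in the shallow unnamed cluster. Hypoblast markers stood at 2490 CPM in shallow and 1014 CPM in deep blastoid barcodes, with 24 of 24 detected. Epiblast markers ran the other way, at 308 CPM (11 of 14 detected) and 537 CPM (13 of 14). Fibroblast markers summed to 51.6 and 21.2 CPM, with 10 of 10 detected in each class. The 5 listed RNAs known to be kept in the nucleus match no row, so the nuclear content of a barcode had no direct measure here. The part of these measures in the ribosomal protein share was not tested.

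Deep barcodes of the libraries were then compared with each other. The share was 2.52% in the blastoid and 0.862% in the blastocyst, a ratio of 2.93 (2.90 to 2.96). With the depth limit at 2000 UMIs that ratio was 6.25. Of 66 members, 59 were at least 2-fold higher in the blastoid and 0 lower, beside 21.9% and 15.2% of 18414 genes. The median log2 ratio was 1.63 for the members and 0.04 for all genes. Core members ranged from 1.54-fold (RPS9, 466 against 303 CPM) to 5.71-fold (RPL35, 367 against 64.3 CPM). RPS12 stood at 799 CPM in the blastoid and 236 in the blastocyst, and RPSA at 729 and 409. Depths still differed within the deep class, with medians of 13070 and 8592 UMIs, and the deep share was lower at greater depth in both libraries once the largest blastocyst barcode was left out. Among shallow barcodes the ratio was 3.83 (3.76 to 3.90), and 10.7 with the limit at 8000 UMIs. At 4000 UMIs it came with 64 of 66 members at least 2-fold higher and 0 lower against 12.0% and 43.2% of 13527 genes, and medians of 1.91 for members and -0.79 for all genes. The 64 include RPL17, whose ratio of 11.1 (3.77 to 54.1) rests on 3 UMIs in the shallow blastocyst barcodes. Over the 5620 genes with at least 100 UMIs in the 2 shallow sums together, the median log2 ratio was -0.16. Setting sums under 3 UMIs to 3 lowers the ratio of genes with few UMIs in the shallow blastocyst barcodes, and the background of lower genes includes such genes.

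The same difference was present between the trophectoderm-like clusters of both libraries. In deep barcodes, the share was 2.47% (2.45% to 2.49%) over 147 blastoid barcodes and 0.744% (0.733% to 0.755%) over 225 blastocyst barcodes, a ratio of 3.32 (3.26 to 3.37). That ratio leaves out the keratin-high cluster, which also met the naming rule for trophectoderm. Its 28 deep barcodes had a share of 3.20%, or 1.56% without the largest barcode, so including them would raise the blastocyst share and lower the ratio. Of the 66 members, 62 were at least 2-fold higher in the blastoid and 0 lower, where 20.3% and 14.4% of 15023 genes were. The median log2 ratio was 1.86 for members and 0.09 for all genes. By subunit, 27 of 28 genes of the small subunit, 32 of 34 of the large subunit and 3 of 3 of the stalk were higher by 2-fold, with median log2 ratios of 1.97, 1.80 and 2.14. RPS28, a small subunit protein, had a ratio of 7.24 (6.07 to 8.68), at 444 and 61.4 CPM. RPL7L1 was the lowest, 0.750 (0.605 to 0.930), at 64.9 and 86.5 CPM. Marker gates on single nuclei, GATA2 or GATA3 without markers of the other lineages, gave deep shares of 2.44% over 181 blastoid and 0.795% over 195 blastocyst barcodes.

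Deep lineage clusters of one library differed little by comparison. Deep LMX1A/DCC-high barcodes had a share of 2.59% (2.57% to 2.61%) beside 2.47% in the trophectoderm-like ones, a ratio of 1.05 (1.04 to 1.06). Their median depths were 11063 and 15091 UMIs. Of 66 members, 0 were 2-fold higher and 0 lower, where 21.6% and 17.6% of 15402 genes passed that fold. In the blastocyst, the deep share was 0.781% (0.772% to 0.791%) in hypoblast-like, 0.744% in trophectoderm-like and 0.688% (0.669% to 0.707%) in NANOG/HMGA2-high barcodes. Median depths in that order were 8087, 9020 and 10214 UMIs, so in both libraries the higher share went with the lower depth. The part of depth in these differences was not tested. Hypoblast-like over trophectoderm-like gave 1.05 (1.03 to 1.07), with 0 of 66 members past 2-fold in either direction against 18.4% and 13.9% of 15407 genes. NANOG/HMGA2-high over trophectoderm-like gave 0.926 (0.897 to 0.955), with 1 of 66 higher and 0 lower, against 17.7% and 14.8% of 13534 genes. Under the marker gates, deep blastocyst shares were 0.817% for HNF4A or PDGFRA, 0.795% for GATA2 or GATA3 and 0.772% for NANOG or PRDM14. The last gate also admits barcodes with HNF4A or PDGFRA, so it is not the NANOG/HMGA2-high cluster. In the blastoid the gates lay further apart than the clusters. The deep share was 3.19% (3.10% to 3.28%) over 15 HNF4A or PDGFRA barcodes and 2.44% over 181 GATA2 or GATA3 barcodes. Their median depths were 9027 and 14773 UMIs, and the part of depth was not tested. The differences among clusters are smaller than the spread over barcodes, whose SD was 0.235 percentage points in the deep hypoblast-like and 0.342 in the deep trophectoderm-like cluster.

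**Figure D3:**
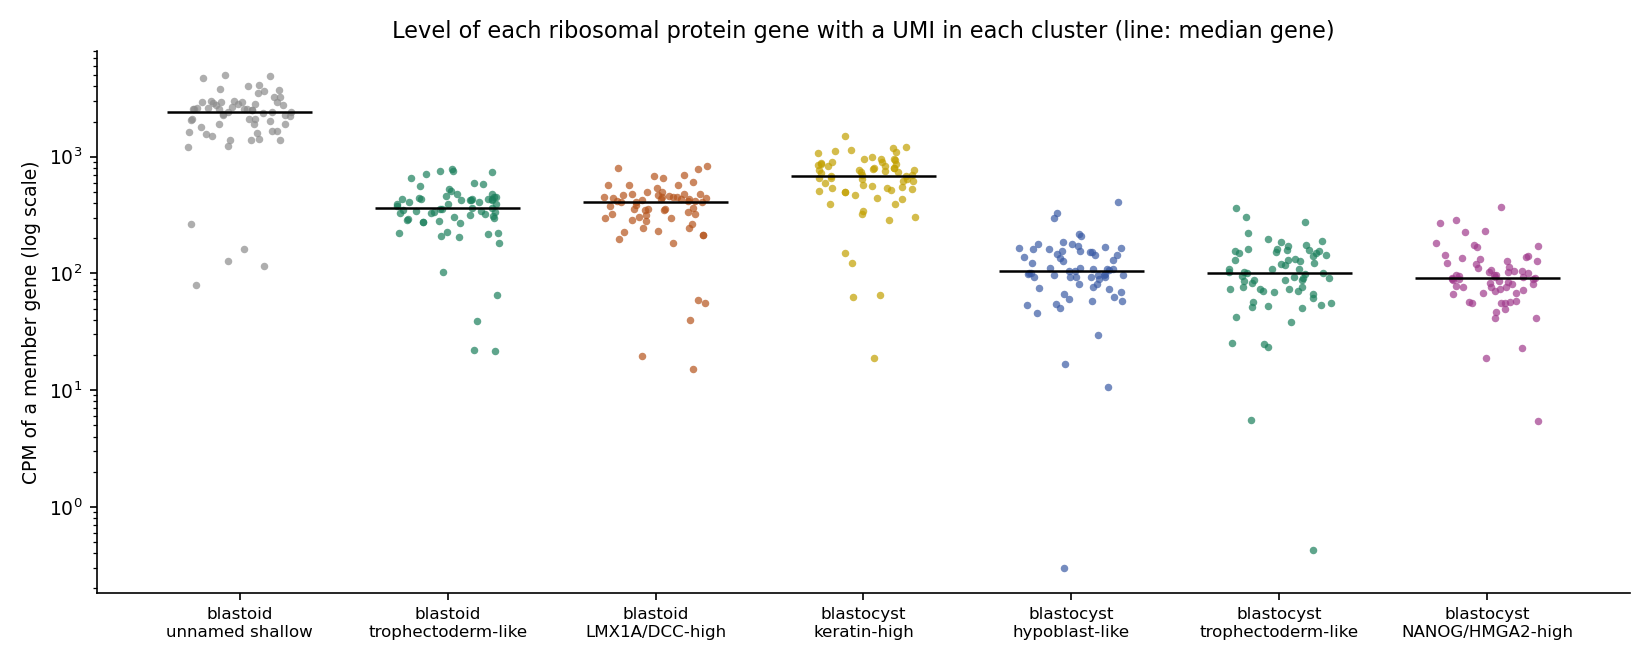
Level in CPM (log scale) of each ribosomal protein gene with at least 1 UMI in each of the 7 clusters; points are genes, colours are clusters, and lines give the median gene. Most members shift with the set. RPL7L1 shifts less than most among the blastoid clusters, and its level was not higher in the blastoid library than in the blastocyst library. RPS12 stood at 4974 CPM in the shallow unnamed blastoid cluster, 784 CPM in the trophectoderm-like blastoid cluster, and 196 CPM in the trophectoderm-like blastocyst cluster, where RPL7L1 stood at 127, 65.3 and 87.5 CPM. The 5 low points under each blastoid group are RPL22L1, RPL26L1, RPL7L1, RPL17 and RPS19BP1.

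The keratin-high blastocyst cluster stood apart from the other blastocyst clusters. Its share was 4.48% (4.42% to 4.55%) over all 119 barcodes, 7.00% in its 91 shallow and 3.20% in its 28 deep barcodes, and 1.56% in the 27 deep ones without the largest barcode. Shallow barcodes of the hypoblast-like and trophectoderm-like clusters had shares of 1.14% (37 barcodes) and 1.19% (11 barcodes), lower than the 7.00% of the shallow keratin-high ones. They were also deeper, with medians of 3358 and 2866 UMIs against 1191 in the shallow keratin-high barcodes, and the part of depth was not tested. Compared with deep trophectoderm-like barcodes, the whole keratin-high cluster gave 6.03-fold the share (5.91 to 6.16). That ratio was 5.14 without the largest barcode. In it, 65 of 66 members were at least 2-fold higher and 0 lower, against 22.2% and 14.7% of 12999 genes. RPS12 stood at 1105 CPM in the keratin-high cluster, against 226 CPM in the NANOG/HMGA2-high and 217 CPM in the hypoblast-like cluster. RPLP0, the core of the P stalk, stood at 957, 128 and 168 CPM in the same order.

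Keratins moved along with the ribosomal protein share. KRT7, KRT8, KRT18 and KRT19, filament proteins of epithelia and of trophectoderm, summed to 6735 CPM in the keratin-high cluster, 1396 CPM in the trophectoderm-like blastocyst cluster, 2194 CPM in the trophectoderm-like blastoid cluster and 10602 CPM in the shallow unnamed blastoid cluster. Mitochondrial genes gave 3.19% of UMIs in the keratin-high cluster. Over its 119 barcodes, Spearman's rho of the keratin share with the ribosomal protein share was 0.62, and -0.57 for depth with the ribosomal protein share. The same rho with keratins was 0.13 over the 1620 shallow unnamed blastoid barcodes. These are descriptions over barcodes of 1 library, which share its total, and the part of depth and lineage in them was not tested.

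The make-up of the ribosomal protein UMIs, as opposed to their amount, was nearly the same in shallow and deep blastoid barcodes, and differed more between shallow and deep blastocyst barcodes and between libraries. Small subunit genes gave 50.1% of member UMIs in the blastoid (49.9% to 50.2%) and 50.7% in the blastocyst (50.4% to 51.1%), large subunit genes 43.8% and 43.9%, and the stalk 6.05% and 5.13%. The 10 members with most UMIs gave 26.0% and 28.0%. Those of the blastoid included RPS12, RPS20, RPS27A, RPL7A, RPLP1, RPS24, RPSA, RPL23 and RPS2, and those of the blastocyst RPSA, RPS9, RPS2, RPS12, RPS27A, RPL11, RPL24 and RPLP0. Moving from deep to shallow in the blastoid placed 2.64% of member UMIs on other members, and from LMX1A/DCC-high to trophectoderm-like 2.81%. In the blastocyst this was 9.395% from deep to shallow and 6.02% from hypoblast-like to trophectoderm-like, and between libraries 13.5% over all kept barcodes, 12.5% over deep and 15.1% over deep trophectoderm-like barcodes. The smaller UMI sums of the blastocyst carry more counting error in this measure.

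**Figure D4:**
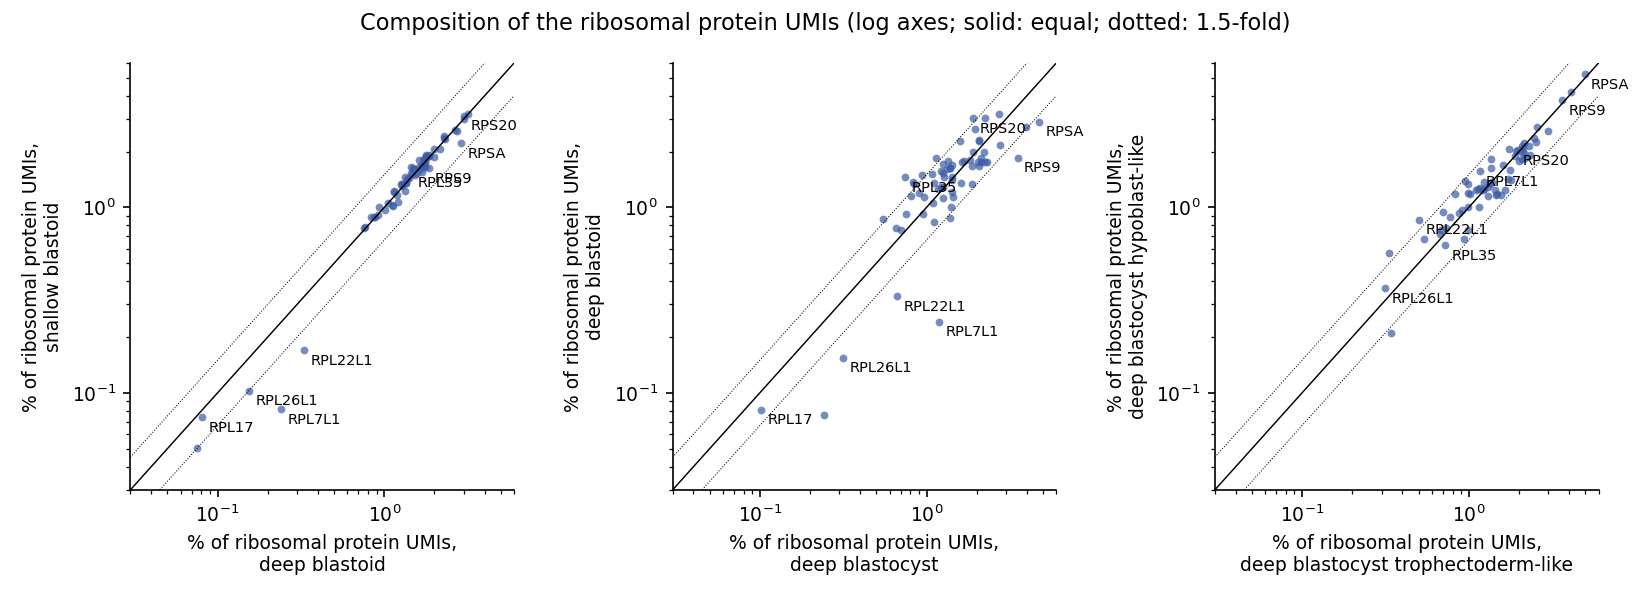
Percent of member UMIs taken by each member (log axes) in shallow against deep blastoid barcodes, in deep blastoid against deep blastocyst barcodes, and in deep hypoblast-like against deep trophectoderm-like blastocyst barcodes, with a solid line of equality and dotted lines at 1.5-fold. Members hug the line in the first panel and scatter more in the second, where RPL7L1 lies farthest below it, at 0.242% in the blastoid and 1.195% in the blastocyst.

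Within the make-up, a few members differed between libraries in the same direction in several classes. RPL35, a large subunit protein near the exit of the peptide tunnel, took 1.52% of blastoid and 0.816% of blastocyst member UMIs, 1.87 times as much (1.71 to 2.04), and 1.95 times in deep barcodes. RPS26, of the small subunit at the mRNA exit, took 1.44% and 0.816%. RPS28 took 1.90% and 1.17%, a ratio of 1.62 (1.51 to 1.75). In the other direction, RPS9 took 1.67% in the blastoid and 3.30% in the blastocyst, a ratio of 0.506 (0.483 to 0.530). RPS9 was also among the 5 lowest in the deep and in the deep trophectoderm-like comparison, at 0.525 and 0.532. Of 66 members, 51 kept within 1.5-fold between libraries, 52 in deep barcodes and 62 between shallow and deep blastoid barcodes. Between shallow and deep blastocyst barcodes 58 of 65 did, with RPSA at 0.536 and RPL22 at 0.584 of their deep share of member UMIs. In deep trophectoderm-like barcodes 49 of the 65 members with at least 100 UMIs did. The comparisons share barcodes, so their values stand side by side and are not independent of each other.

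RPL7L1 departed furthest from the set. Its level was 89.2 CPM in the blastoid and 107 CPM in the blastocyst, a ratio of 0.833 (0.749 to 0.926), where the core members ranged from 4.11-fold to 15.2-fold. Its share of member UMIs was 0.110% and 1.07%. By cluster it stood at 127 CPM in the shallow unnamed, 65.3 in the trophectoderm-like and 55.9 in the LMX1A/DCC-high blastoid cluster, and at 122.5 in the hypoblast-like, 87.5 in the trophectoderm-like, 150.2 in the keratin-high and 74.1 in the NANOG/HMGA2-high blastocyst cluster. The highest of these values belongs to the keratin-high blastocyst cluster, whereas the highest level of RPS12 belongs to a blastoid cluster. The keratin-high cluster held only 426139 UMIs, and these cluster levels carry no interval here. The order of 150.2, 127 and 122.5 CPM is therefore not established beyond counting error. RPS19BP1, the name match, had 44.4 and 22.9 CPM, a ratio of 1.94 (1.60 to 2.36).

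RPL22L1, a paralogue that can take the place of RPL22 in the large subunit, was compared with RPL22 as a pair. It gave 13.8% (12.9% to 14.7%) of the pair's UMIs in shallow and 21.5% (19.5% to 23.5%) in deep blastoid barcodes. By lineage it gave 25.7% (23.02% to 28.61%) in the trophectoderm-like and 15.7% (13.1% to 18.6%) in the LMX1A/DCC-high blastoid cluster. In the blastocyst it gave 38.2% (34.3% to 42.3%) in the hypoblast-like, 38.2% (29.1% to 47.9%) in the NANOG/HMGA2-high, 23.9% (18.4% to 30.1%) in the keratin-high and 22.4% (18.5% to 26.9%) in the trophectoderm-like cluster. The trophectoderm-like value thus lay above the other deep cluster in the blastoid and below the hypoblast-like cluster in the blastocyst, beyond counting error in each library. The intervals of the trophectoderm-like clusters of the libraries overlap. RPL22L1 alone stood at 103.8 and 59.1 CPM in the trophectoderm-like and LMX1A/DCC-high blastoid clusters and at 38.4 and 67.1 CPM in the trophectoderm-like and hypoblast-like blastocyst clusters. RPL26L1, the paralogue of RPL26, stood at 90.8 CPM in the blastoid and 29.0 CPM in the blastocyst, 3.13-fold (2.67 to 3.69).

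Number of members seen per nucleus was compared after thinning each barcode to 1000 UMIs. A median of 55 members was then detected in shallow blastoid barcodes (51 to 58 at the 10th and 90th percentiles, 4 barcodes left out for depth), 22 in deep blastoid barcodes (14 to 30.5), 17 in shallow blastocyst barcodes (8 to 46.5, 34 left out) and 7 in deep blastocyst barcodes (4 to 12). Without thinning the medians were 61, 62, 32 and 38. Among blastoid clusters the thinned medians were 21 in the trophectoderm-like and 23 in the LMX1A/DCC-high cluster, and in the blastocyst 8 in the hypoblast-like, 7 in the trophectoderm-like, 21 in the keratin-high and 6 in the NANOG/HMGA2-high cluster.

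Other genes of translation were read from lists. The 21 matched TOP genes for elongation and initiation factors and related proteins (EEF1A1, EEF2 and TPT1 among them) summed to 4.34 times as much in shallow as in deep blastoid barcodes, with 19 of 21 at least 2-fold higher and 0 lower and a median log2 ratio of 2.12. The ratio of the small subunit sum in the same comparison was 6.19, of the large subunit 6.16 and of the stalk 6.57. EEF1A1, which brings aminoacyl-tRNA to the ribosome, stood at 1768 and 325 CPM, and TPT1 at 1868 and 297 CPM. The 16 abundant cytosolic mRNAs outside translation, such as ACTB and GAPDH, summed to 5.30 times as much in shallow barcodes, with 16 of 16 at least 2-fold higher, and the 13 mitochondrially encoded genes to 4.21 times, with 13 of 13. Mitochondrial ribosomal protein genes, which are nuclear genes whose products serve the ribosome of the mitochondrion, summed to 2.15 times, with 49 of 74 higher and 4 lower. Ribosome biogenesis genes gave 1.27 times, with 7 of 36 higher and 3 lower. The regulators, such as MTOR, RPTOR and LARP1, gave 0.419 times, with 2 of 17 higher and 9 lower. Over all genes 18.4% were higher and 44.4% lower, so the biogenesis genes that were higher and the regulators that were lower come near the background, and the regulators' median log2 ratio was -1.05 beside -0.77. In this comparison the sums were thus highest for abundant cytoplasmic mRNAs of several kinds and lowest for the regulators.

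Between deep trophectoderm-like barcodes of the libraries the lists separated more. Small subunit genes summed to 3.29 times, large subunit genes to 3.30 times and the stalk to 3.88 times as much in the blastoid. The TOP genes outside the members gave 1.80 times, with 10 of 21 at least 2-fold higher and 0 lower, and the abundant cytosolic mRNAs 1.72 times, with 6 of 15 higher and 0 lower. Mitochondrial ribosomal protein genes gave 1.199 times (10 of 72 higher, 0 lower), biogenesis genes 1.10 times (1 of 36 higher, 1 lower), regulators 0.904 times (2 of 17 higher, 1 lower) and mitochondrially encoded genes 0.801 times (2 of 12 higher, 0 lower). The shares over all genes were 20.3% higher and 14.4% lower, and the shares called in these last 4 lists were below them. Medians of log2 ratios were 0.88 for the TOP list, 0.87 for the cytosolic list, 0.37 for mitochondrial ribosomal proteins, 0.11 for biogenesis and 0.06 for the regulators, beside 0.09 for all genes. Mitochondrial share and ribosomal protein share therefore did not move the same way in this comparison, whereas both were higher in shallow than in deep barcodes.

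**Figure D5:**
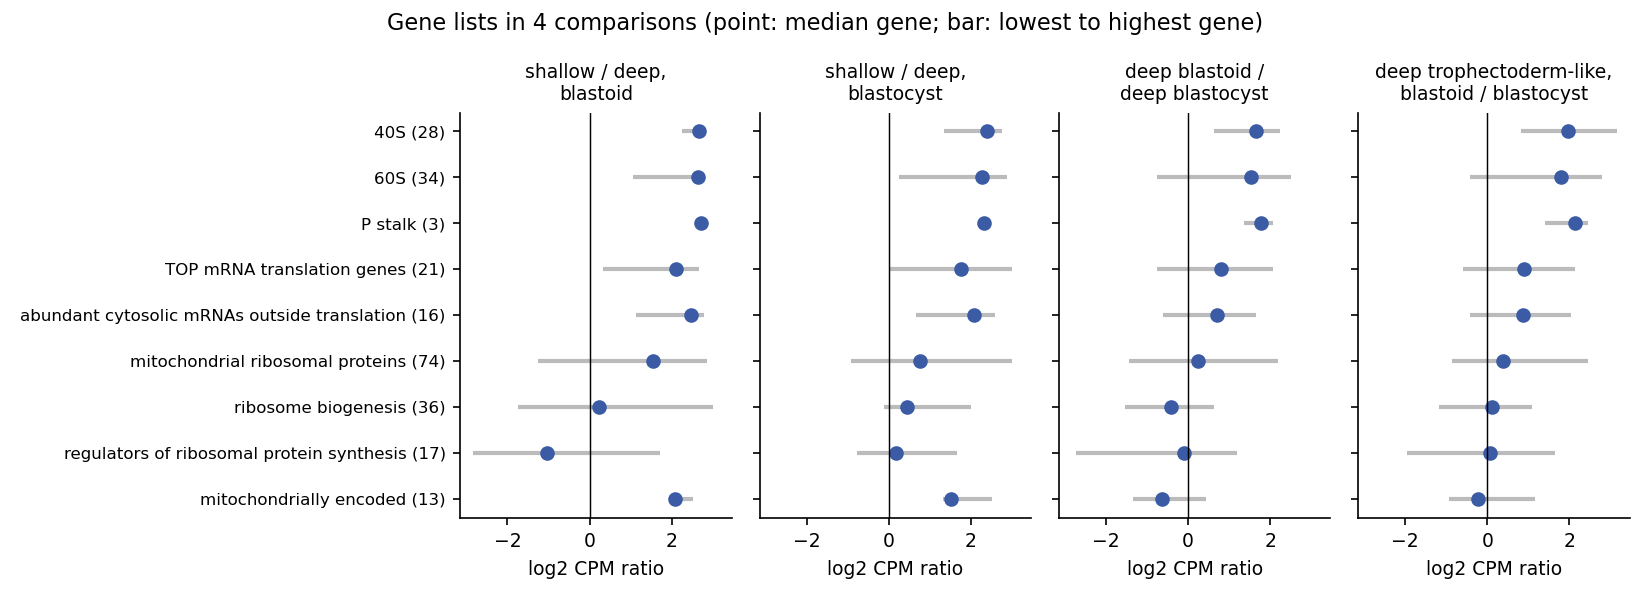
Log2 ratio of CPM by gene list in 4 comparisons (shallow over deep in each library, deep blastoid over deep blastocyst, and the same within trophectoderm-like barcodes); points give the median gene, bars run from the lowest to the highest gene, and the number of genes with at least 10 UMIs in the first comparison follows each name. Medians of the 40S, 60S and P stalk groups lie above those of all other lists in each panel, at 2.63 to 2.71 in the first and 1.80 to 2.14 in the last.

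Genes that followed the members most closely were ranked over the 7 clusters of both libraries by Pearson's r of their log2 CPM with the log2 ribosomal protein share. Clusters of 1 library share its preparation, and shallow clusters share low depth, so r is a description only. Of 4852 other genes with a symbol and at least 200 UMIs in each library, the 5 highest included TMEM258 (0.999), HSD11B1L (0.998), PRDX1 (0.996) and EEF1D (0.996). EEF1D is an elongation factor subunit, PRDX1 a peroxiredoxin and TMEM258 a subunit of the oligosaccharyltransferase complex. EEF1D stood at 679 CPM in the shallow unnamed, 116 in the trophectoderm-like and 108 in the LMX1A/DCC-high blastoid cluster, and at 25.3 in the hypoblast-like, 27.8 in the trophectoderm-like, 155 in the keratin-high and 22.9 in the NANOG/HMGA2-high blastocyst cluster. The median r was 0.995 over the 63 members tested, for which it is partly built in, and -0.48 over the other genes, 228 of which had r above 0.9.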

How the data were processed

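The authors deposited 1 matrix of UMI counts per gene and barcode for each library, whose headers name Cell Ranger 7.2.0, while the submitters' processing notes list version 7.1.0 of it and Seurat 4.3.0. Genome build, annotation and cell calling are not given in the sources used here. Symbols came from the deposited feature lists, and all 69 member symbols occur in the RefSeq gene table (ARS-UCD2.0), used for names and neighbours only. The members, lists and comparisons were chosen with earlier results of these data known.

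Barcodes with at least 500 genes and under 10% mitochondrial UMIs were kept (1944 of 1957 blastoid, 833 of 944 blastocyst), and those with the highest Scrublet scores (0.8% per 1000 barcodes, scanpy 1.11.5) were removed, 30 and 5. Each library was clustered alone on 2000 variable genes without members and markers (30 components, 15 neighbours, leidenalg 0.10.2, resolution 0.5), so that no cluster was defined by ribosomal protein genes. A marker counted with at least 100 UMIs and 1.5 times the CPM of the other clusters, and a name needed 3 markers and 2 times as many as any other class. By this rule the keratin-high cluster was trophectoderm-like and the LMX1A/DCC-high cluster hypoblast-like. Both were given other names from their leading genes.

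Counts were summed per class. Shares carry exact binomial and ratios exact conditional 95% intervals, and no p-value was computed. A gene was called past 2-fold among those with at least 10 UMIs in both sums, and composition ratios needed 100. All members could be named; others were the lists' genes and the 5 genes most like the members. Near-identical copies and processed pseudogenes of ribosomal protein genes can split or add reads. The ratio intervals and the thinning were tested on simulated counts that held no spread over barcodes beyond counting error. Filtering, doublet removal, clustering and naming were not simulated. The alternatives are in the closing section. Some results that the naming rule covers are not reported here.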

Additional observations from a re-analysis of the deposited data

Results flagged for a closer look

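Barcodes that the filters left out also carried ribosomal protein UMIs, and they were outside every comparison above. In the blastoid library, the 43 such barcodes had a share of 13.21% (12.99% to 13.43%, exact binomial), and in the blastocyst library the 116 such barcodes had 3.617% (3.527% to 3.708%). Both shares are above that of the kept barcodes of the same library, 8.09% and 0.996%. Their median depths were 2202 and 879 UMIs, and mitochondrial genes gave 3.12% and 16.2% of their UMIs, the latter in a set that the mitochondrial limit selects. The part of depth in these values was not tested.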

How the results depend on the processing

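No result changed direction under the alternatives run, and the counts of members at least 2-fold lower (0 in each comparison) and of members within 1.5-fold in composition stayed within 1.5 times. For the values below the cause was not tested, except where fewer barcodes or members enter by construction. The share over libraries was 8.16% (blastoid) and 1.06% (blastocyst) with all deposited barcodes, 7.13% and 0.9397% with at least 1000 genes, 8.05% and 0.975% without paralogues and RPS19BP1, 7.84% and 0.970% without RPS12, and 8.19% and 1.005% without mitochondrial UMIs in the total. It was 8.15% in the blastoid with doublets kept, 1.02% in the blastocyst from 200 genes, and 0.921% without the largest blastocyst barcode, an alternative added after seeing the data. The shallow blastoid share was 15.3% from 1000 genes, 15.56% without paralogues, 15.1% without RPS12, 15.95% without mitochondrial UMIs, 16.2% with the depth limit at 2000 and 14.6% at 8000 UMIs. The deep blastoid share was 2.50% without paralogues, 2.44% without RPS12, 5.89% at 2000 and 2.36% at 8000. The shallow blastocyst share was 4.37% with all barcodes, 4.33% from 200 and 3.22% from 1000 genes, 3.98% without RPS12, 4.17% without mitochondrial UMIs, 5.53% at 2000 and 1.36% at 8000. The deep blastocyst share was 0.841% without paralogues, 0.838% without RPS12, 0.942% at 2000, 0.831% at 8000 and 0.782% without the largest barcode.

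The ratio of libraries was 7.71 with all barcodes, 7.92 from 200 and 7.58 from 1000 genes, 8.20 with doublets kept, 8.265 without paralogues and 8.78 without the largest barcode. Shallow over deep in the blastoid was 6.15 with all barcodes, 6.065 from 1000 genes, 6.295 without mitochondrial UMIs and 2.75 with the limit at 2000, since the 687 barcodes of 2000 to 4000 UMIs then count as deep. In the blastocyst it was 5.08, 5.02 (200 genes), 3.73 (1000 genes), 5.88 (2000), 1.64 (8000) and 5.22 without the largest barcode. Deep over deep was 2.975 without paralogues, 6.25 at 2000, 2.84 at 8000 and 3.23 without the largest barcode. Shallow over shallow was 3.565 with all barcodes, 3.60 from 200 and 4.76 from 1000 genes, 2.93 at 2000 and 10.7 at 8000. Keratin-high over trophectoderm-like was 6.20 without mitochondrial UMIs and 5.14 without the largest barcode.

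Marker gates gave deep shares of 2.44% and 0.795% for trophectoderm-like nuclei of blastoid and blastocyst and 0.817% for hypoblast-like ones, which were 0.771% with members among the variable genes and 0.769% at resolution 0.3. The NANOG or PRDM14 gate, which also admits barcodes with HNF4A or PDGFRA, gave 0.772%. It took 160 deep barcodes, against 68 in the NANOG/HMGA2-high cluster. In clusters with HMGA2 among the 10 leading genes (a match chosen after seeing the data), the share was 0.622% at resolution 0.3 (16 barcodes) and 0.723% at resolution 1.0 (89 barcodes). The count of members 2-fold higher in NANOG/HMGA2-high than in trophectoderm-like barcodes was 0 from 100 and 2 from 1 UMI. Thinning to 500 and 2000 UMIs gave 42 and 61 members in shallow blastoid, 12 and 36 in deep blastoid, 13 and 21 in shallow blastocyst and 4 and 13 in deep blastocyst barcodes. Having 1 library per group limits every comparison to these libraries. No paired analysis was possible because each group had 1 library.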

Other observations

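Of the 14 ribosomal protein symbols without a row, 13 occur in the RefSeq gene table, and 11 of their direct neighbours there had enough UMIs for a value. Among these 11, only HSD11B1L, next to RPL36, followed the ribosomal protein share over the 7 clusters with r above 0.99 (0.998, from 3794 blastoid and 411 blastocyst UMIs). HSD11B1L stood at 988.5 CPM in the shallow unnamed blastoid cluster and 44.0 CPM in the trophectoderm-like blastocyst cluster. TUT1, a nucleotidyltransferase gene with r of 0.996 that was looked up after its value was seen, lies next to EEF1G, an elongation factor gene with no row under that symbol. Whether reads of the neighbour were counted for either gene was not tested.

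Among 405 features without a symbol and with at least 200 UMIs in each library, 11 had r above 0.99. They gave 1.29% of blastoid and 0.153% of blastocyst UMIs, and are not included in any share above.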
